A study of Mus musculus with 6 samples.

Results

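Ceacam1 and Ceacam2, neighbouring mouse genes for cell adhesion proteins, were read by 11 probe sets, of 45037 other than array controls, on 6 Affymetrix expression arrays. The members are all probe sets whose platform annotation names either gene, dim ones included. Of the 11, 8 were named for Ceacam1 alone, 1 for Ceacam2 alone and 2 for both. The pair was picked because a Ceacam1 probe set had the smallest p of the whole table in the comparison described here. Its differences between groups are therefore a description, with no test and no support drawn from them.

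The arrays held RNA from pancreatic islets of OF1 male mice, 10 weeks of age, with 3 arrays for vehicle controls and 3 for mice given BPA (bisphenol A, used in making plastics and able to bind oestrogen receptors). The labels differ on the treatment: the design text gives 100 µg/kg/day as injections of 50 µg/kg under the skin for 4 days, against 100 µL of corn oil, with islets taken 16 hours after the last injection. The treatment protocol gives 2 days, while 1 nM for 48 hours stands in the source names of that group. OF1 is an outbred stock, so its animals are not genetically identical, and neither genotypes nor the number of animals behind each sample are given in the sources used here. Samples are called biological replicates in their titles; if they share animals, the spread between them is partly technical.

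CEACAM1 is a cell surface glycoprotein of the immunoglobulin superfamily, found on epithelia, endothelium and leukocytes. Its RNA is spliced into forms with a long or a short cytoplasmic tail, and the long tail binds the phosphatases SHP-1 and SHP-2 when phosphorylated. In liver it is a substrate of the insulin receptor and takes part in the uptake and clearance of insulin; in mice it is also the receptor of a coronavirus, and strains carry different alleles of it. CEACAM2, its closest relative in the mouse, has been linked to feeding, energy balance and insulin secretion.

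Both genes lie side by side on chromosome 7 in the RefSeq annotation of the assembly GRCm38.p6, which lists 4 curated transcripts for Ceacam1 and 3 for Ceacam2. Their promoters are shown because 2 of the probe sets cannot separate the genes, and the likeness of the pair extends to the DNA in front of them. The windows are the 250 bases before each RefSeq start, on the minus strand, at chr7:25477626-25477875 for Ceacam1 and chr7:25540005-25540254 for Ceacam2, with the stretch that aligned between the genes in capitals.
Ceacam1 promoter: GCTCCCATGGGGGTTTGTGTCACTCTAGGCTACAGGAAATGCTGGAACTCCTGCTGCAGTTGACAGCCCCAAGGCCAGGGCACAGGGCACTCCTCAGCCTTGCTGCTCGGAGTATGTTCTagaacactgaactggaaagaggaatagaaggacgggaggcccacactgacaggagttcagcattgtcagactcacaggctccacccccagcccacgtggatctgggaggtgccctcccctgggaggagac
Ceacam2 promoter: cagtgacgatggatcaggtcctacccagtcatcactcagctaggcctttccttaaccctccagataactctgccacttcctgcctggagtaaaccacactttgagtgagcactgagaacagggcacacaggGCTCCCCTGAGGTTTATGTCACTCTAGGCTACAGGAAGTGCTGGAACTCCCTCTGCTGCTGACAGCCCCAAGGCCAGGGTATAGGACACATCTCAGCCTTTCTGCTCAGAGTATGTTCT

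In that stretch 104 of 120 aligned positions were identical (86.7%). It begins 250 bases before the Ceacam1 start and ends at the Ceacam2 start, so the same sequence sits at different distances from the starts. Both ends are edges of the windows, and likeness beyond them was not looked at. The Ceacam1 bases after the stretch, where the E-box described next lies, thus had no aligned counterpart in the Ceacam2 window. The E-box CACGTG, searched on both strands, occurred 1 time in the Ceacam1 window, 38 bases before the start, and was not found in the Ceacam2 window. Of all 32851 windows of this length, 6.02% held it. The oestrogen response element, which is GGTCA followed after 3 bases by its reverse complement (in 0.064% of windows), and GGTCA alone (35.2%), which the full element contains, were found in neither window, and neither were TATAAA (12.4%) or GGGCGG (32.7%). A match or its lack describes these letters only.

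Probe sets of the 2 genes disagreed. Lower signal after BPA, with every BPA array below every control array, was seen on 4 of the 11 probe sets. They were 1425538_x_at, 1427630_x_at, 1450494_x_at and 1422123_s_at. Another 6 overlapped between groups and 1 was higher after BPA without overlap. Over all probe sets 3.96% were lower and 7.56% higher without overlap, and over those above the filter 4.35% and 7.83%. The members were picked from this contrast, so nothing is read from their share. In limma's moderated test 0 of 22518 probe sets above the signal filter passed an adjusted p of 0.05 (0%), with 1458 at an unadjusted p under 0.05, and the ordinary test without moderation also gave 0 (1446 unadjusted).

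The suffix of an Affymetrix probe set says how unique its probes are. Probes of an _at set match 1 known transcript and those of an _a_at set match several transcripts of 1 gene. Those of an _s_at set match transcripts that can come from several genes, and an _x_at set holds some probes that also match other sequences. Of the 4 members with suffix _x_at, 3 were lower without overlap, as was 1 of 3 with suffix _s_at and 0 of 4 with suffix _at or _a_at. In the whole table the share lower without overlap was 4.59% for _x_at, 4.55% for _s_at, 3.91% for _at and 3.75% for _a_at. The share higher without overlap was 5.86% for _x_at, 8.19% for _s_at, 7.14% for _at and 11.6% for _a_at, beside 1 of the 4 members with suffix _at or _a_at.

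The largest difference was on 1425538_x_at, a Ceacam1 probe set. Signals on control arrays 1 to 3 were 8.58, 8.01 and 8.02, and those on BPA arrays 1 to 3 were 6.76, 6.50 and 6.74. The lowest control array lay 1.25 above the highest BPA array. The mean log2 signal was 8.20 ± 0.33 in controls and 6.66 ± 0.14 after BPA (SD, n = 3 per group), a difference of -1.54 ± 0.21 (log2, SE) or 34.4% of the control signal. Only 4 of the 22518 probe sets above the filter differed by more in that direction, and the 5th and 95th percentiles of their differences were -0.50 and 0.35. In whole islets, fewer cells carrying the RNA that a probe set reads and less of it per cell cannot be told apart. Whether 1425538_x_at reads all Ceacam1 transcripts was not tested, and not all Ceacam1 probe sets shared its difference. Nor was it tested whether samples differ in their Ceacam1 alleles, or whether other sequences add to the signal of this _x_at set.

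The Ceacam1 probe set 1427630_x_at followed the same order of groups. It read 8.07, 7.64 and 7.93 in controls and 6.86, 6.65 and 6.71 after BPA. Its mean was 7.88 ± 0.22 against 6.74 ± 0.11, a difference of -1.14 ± 0.14, or 45.3% of the control signal. The gap between groups, 0.79, was wider than the range within either of them, which was 0.43 in controls and 0.21 after BPA.

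Smaller differences came from 1450494_x_at and 1422123_s_at, which were designed from the same mRNA record; the first is named for Ceacam1 alone and the second for both genes. The former read 7.87, 7.54 and 7.78 in controls and 6.87, 7.10 and 6.92 after BPA, a difference of -0.77 ± 0.12 (58.7% of control). The latter read 8.03, 7.99 and 7.77 against 7.48, 7.39 and 7.003, a difference of -0.64 ± 0.17 (64.1% of control). Both were lower in all 3 BPA arrays, with BPA replicate 3 the lowest on the shared probe set and BPA replicate 1 on the other. The log2 ratio between the 2 probe sets on the same array was 0.20 ± 0.24 in controls and 0.33 ± 0.26 after BPA (SD, n = 3 per group), which overlapped between the groups.

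Another pair from a single mRNA record did not move alike. The Ceacam1 probe set 1460681_at read 9.25, 9.46 and 9.08 in controls and 9.24, 9.19 and 9.10 after BPA. Its groups overlapped fully, with all BPA arrays inside the control range, at 9.26 ± 0.19 against 9.17 ± 0.07 (a difference of -0.088 ± 0.119). Its partner 1460682_s_at, named for both genes, read 9.67, 9.69 and 9.38 in controls and 9.44, 9.17 and 8.93 after BPA, a difference of -0.39 ± 0.18. Here BPA replicate 1 lay above control replicate 3, so the groups overlapped. On each array the ratio of 1460682_s_at to 1460681_at was 0.42, 0.22 and 0.30 in controls and 0.20, -0.02 and -0.16 after BPA. That ratio did not overlap between groups; BPA replicate 1 lay just below control replicate 2.

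Ceacam2 had 1 probe set of its own, 1421603_a_at. It read 8.13, 7.93 and 8.22 in controls and 8.04, 8.22 and 8.19 after BPA. The groups overlapped, at 8.09 ± 0.15 against 8.15 ± 0.09, a difference of 0.056 ± 0.10. The probe sets named for both genes were thus the only other readings of Ceacam2, and they differed by -0.64 and -0.39.

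The remaining Ceacam1 probe sets were dim. The set 1425675_s_at, with a mean of 6.62, lay only 0.016 above the filter. It read 6.64, 6.46 and 6.51 in controls and 6.91, 6.47 and 6.73 after BPA, a difference of 0.17 ± 0.14 with overlap. Below the filter, 1427711_a_at read 5.56, 5.70 and 5.66 against 5.72, 5.89 and 5.94 and was the 1 member higher after BPA without overlap, by 0.21 ± 0.08. The set 1427712_at, from the same mRNA record, differed by 0.035 ± 0.046 and 1452532_x_at by 0.030 ± 0.049, both with overlap. These 3 sets had means of 4.65 to 5.75, and whether such dim probe sets measure the transcript was not tested.

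Because of this disagreement a single value for Ceacam1 depends on which probe sets count. The median difference over the 10 probe sets that name Ceacam1 was -0.24. Over those named for Ceacam1 alone it was -0.029, and over those above the filter it was -0.64. Among 229 genes with at least 5 probe sets above the filter, each named for 1 gene, the median gene had a span of 0.49 (log2) from its lowest to its highest difference, with quartiles of 0.33 and 0.71. The 5 of Ceacam1 spanned 1.71, the widest of the 229, followed by H2-D1 at 1.69 and Kif5b at 1.59. The upper end of that span was 1425675_s_at (0.17), which lay only 0.016 above the filter. Without that set Ceacam1 would have fewer than 5 probe sets above the filter and would not be in this order. The gene was chosen from the same contrast, so its place in this order is a description.

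A constant shift of an array's log2 signals cancels in the ratio between probe sets on that array. Relative to 1460681_at, the set with the highest mean among those named for Ceacam1 alone, 1425538_x_at stood at -0.67, -1.45 and -1.06 on the control arrays and at -2.48, -2.69 and -2.36 on the BPA arrays. The groups did not overlap, and the ratio differed by -1.45 (-1.42 after quantile normalization and -1.46 after cyclic loess). Relative to the Ceacam2 probe set 1421603_a_at the same probe set differed by -1.59, and relative to 1460682_s_at by -1.14. The ratio to 1460681_at differed by -1.05 for 1427630_x_at, by -0.68 for 1450494_x_at and by -0.55 for 1422123_s_at, each without overlap. For 1421603_a_at and 1425675_s_at it differed by 0.14 and 0.26, with overlap. These ratios show unequal change between probe sets and not which of them stayed level.

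How the probe sets varied together was described by Pearson's r over the 6 arrays, which share group, labelling and scaling. Among the 6 pairs of the 4 lower probe sets r was 0.85 to 0.99, a value that the group difference itself sets. Deviations from the group means correlated at 0.022 to 0.77 for the same pairs. The highest of these was between 1425538_x_at and 1427630_x_at, both highest in control replicate 1 and lowest in BPA replicate 2. Deviations of the 2 probe sets named for both genes, 1422123_s_at and 1460682_s_at, correlated at 0.94, with replicate 3 the lowest array in each group on both. Those of the Ceacam2 set and 1460681_at correlated at -0.91. Over all 55 pairs of members the deviations correlated at -0.96 to 0.94, with a median of -0.082. The lowest pair was 1422123_s_at with 1427712_at, which lay below the filter, so nothing is read from single pairs.

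Patterns most like that of 1425538_x_at were searched among 19380 probe sets above the filter that name 1 other gene. The highest r over the 6 arrays was 0.993, for a probe set of Mia3, which encodes a protein for the export of collagen from the endoplasmic reticulum. It read 11.31, 10.89 and 10.85 in controls and 10.02, 9.91 and 9.86 after BPA, a difference of -1.09. The other 2 probe sets of Mia3 above the filter differed by -0.039 and 0.030, so that gene's probe sets disagreed as well. Spearman's rho was 0.886 for Mia3 and 0.771 to 0.943 for the next 4 genes. These were Tpp1, a lysosomal peptidase gene (r = 0.992), Map1lc3b of autophagy (0.985), Nipbl, the cohesin loader gene (0.983), and the synapsin gene Syn2 (0.983). Their differences were -0.30, -0.21, -0.63 and -0.30. By deviations from the group means the closest were Sde2, Ikbip, 1700025G04Rik, Mrpl44 and D2hgdh, with r of 0.992 to 0.996. That measure leaves out the group difference, which was 0.24, 0.066, 0.019, -0.15 and -0.33 for these genes. Over the 6 arrays their r was 0.088, 0.0006, 0.13, 0.81 and 0.85. Likeness over 6 arrays is a description, and 47 probe sets had r above 0.95.

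Values that stood apart were compared with the members. The balance of 3′ over 5′ probe sets of control transcripts, which depends on the length of the labelled RNA, was 3.35 to 3.80 (log2) for beta-actin in controls and 2.61 to 2.98 after BPA. For Gapdh it was 3.40 to 3.79 against 2.58 to 2.99, and for 18S rRNA 0.88 to 1.31 against 0.64 to 0.86, so none of these 3 overlapped between the groups. Those of the transferrin receptor and pyruvate carboxylase overlapped. The balance therefore moved with the 4 lower probe sets, and its part in their difference was not tested. Array medians were 6.55 to 6.65, and pairs of arrays correlated at 0.976 to 0.993.

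Cell types that can carry CEACAM1 were followed by marker lists, taken as the mean log2 signal of the genes on the array. Endocrine markers were bright, with Ins2, Gcg and Chga at 15.29, 15.10 and 14.97 in controls. Their list averaged 13.85 to 13.92 in controls and 13.83 to 14.00 after BPA. Acinar markers, given below, were bright as well and above that list on some arrays, so acinar RNA was also present. The means of 10 endothelial genes were 9.24 to 9.40 in controls and 9.27 to 9.51 after BPA, with Pecam1 below the filter. Those of 8 duct and epithelial genes were 8.80 to 9.02 against 8.76 to 9.24, with Sox9 and Cftr below it. All of these ranges of list means overlapped between the groups. Among single genes, Pdx1 (-0.21) was lower without overlap, and Iapp (0.066), Emcn (0.35) and Esam (0.19) were higher. The 4 probe sets of Iapp ran from -0.13 to 0.066, and the 2 of Pdx1 from -0.21 to -0.043. Over all genes 3.53% were lower and 8.48% higher without overlap.

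None of the 3 leukocyte lists was lower after BPA without overlap, and their part in the Ceacam1 difference was not tested. The 10 macrophage and leukocyte genes averaged 7.84 to 8.17 in controls and 8.07 to 8.77 after BPA, with Cd68 and Itgam below the filter. Groups did not overlap for 2 of the 10, both higher after BPA, where 7.56% of all probe sets were higher without overlap. C1qa, a complement gene, read 8.60, 8.88 and 8.79 in controls and 9.39, 9.32 and 9.002 after BPA, a difference of 0.48 that did not pass limma's test (adjusted p = 0.674). Cd68 read 6.14, 5.96 and 5.75 in controls and 7.75, 6.58 and 6.74 after BPA. The 5 neutrophil genes averaged 5.22 to 5.67 against 5.54 to 6.81, highest in BPA replicate 1, with S100a8, S100a9, Mpo and Camp below the filter. Elane, above the filter, was higher after BPA without overlap, by 0.24. The 5 genes of T, B and NK cells averaged 5.54 to 5.83 against 5.65 to 5.72, with Cd3g, Ncr1 and Nkg7 below it. The 8 acinar genes, none below the filter, averaged 12.67 to 14.69 in controls and 13.72 to 14.81 after BPA, lowest in control replicate 3.

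Of 4 genes listed as liver markers, 2 set control replicate 3 apart and 2 did not. Cyp3a11, a cytochrome P450 gene, read 9.38 on that array and 3.93 to 4.21 elsewhere, and Apoa1, an apolipoprotein gene, read 9.71 against 6.51 to 7.12. Alb (albumin) read 7.03 there and 6.81 to 7.07 elsewhere, and Ttr (transthyretin) 14.95 against 14.70 to 14.93. The list mean of 10.27 on that array, against 8.05 to 8.24 on the others, thus rests on Cyp3a11 and Apoa1, and their part in the Ceacam1 difference was not tested. Without that array the difference on 1425538_x_at was -1.63, and that on 1422123_s_at was -0.72.

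Other genes of the family were mostly dim. Of 16 genes named Ceacam or Psg (the pregnancy-specific glycoproteins) on the array, only Psg21 lay above the filter, at 7.33 ± 0.17 in controls and 7.26 ± 0.095 after BPA. It did not pass limma's test (adjusted p = 0.935). Below the filter, a probe set of Ceacam11 read 3.80, 3.86 and 3.76 in controls and 4.16, 4.21 and 4.17 after BPA without overlap, while the differences over its 6 probe sets ran from -0.12 to 0.37. The remaining family genes differed by -0.13 to 0.28, with Ceacam10 (-0.0499) and Psg19 (-0.12) lower without overlap. The 3 probe sets of Ceacam10 ran from -0.0499 to 0.22. Over all probe sets 3.96% were lower and 7.56% higher without overlap.

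Genes that act with CEACAM1 were taken from 4 lists of signalling partners, insulin clearance and endocytosis, cytoskeletal and junction partners, and factors of transcription and splicing. With the family these held 66 genes, of which 61 were on the array under 1 name and 42 lay above the filter. In limma's test 0 of the 42 were higher and 0 lower at an adjusted p of 0.05, with a smallest adjusted p of 0.655. At an unadjusted p under 0.05 by limma there were 4, beside 6.47% of all probe sets above the filter. The ordinary test also gave 0, with 3 unadjusted. Their median difference was 0.045, with 25 higher and 17 lower, beside 0.028 over all 11787 genes tested, of which 6804 were higher. Groups did not overlap for 4 lower and 2 higher genes, where 3.53% of all genes were lower and 8.48% higher without overlap.

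Of the 15 signalling partners above the filter 9 were higher and 6 lower, with a median of 0.0575. The phosphatase genes Ptpn6 (SHP-1) and Ptpn11 (SHP-2) differed by -0.083 ± 0.096 and -0.0063 ± 0.0944 (SE). The insulin receptor gene Insr differed by -0.12 ± 0.15 and the epidermal growth factor receptor gene Egfr by 0.13 ± 0.11, the latter without overlap. The 7 probe sets of Egfr ran from -0.15 to 0.18. Irs2, which encodes an adaptor of the insulin receptor, read 9.66, 9.58 and 9.93 in controls and 8.73, 9.30 and 9.08 after BPA. Its groups did not overlap and it differed by -0.68 ± 0.18, which did not pass limma's test (adjusted p = 0.655).

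The 5 genes of insulin clearance and endocytosis had a median of 0.16, with the insulin-degrading enzyme gene Ide at -0.13 ± 0.13 and the dynamin gene Dnm2 at 0.20 ± 0.13. The 9 cytoskeletal and junction partners had a median of 0.012. Among them Cdh1 (E-cadherin) differed by -0.069 ± 0.135, Flna (filamin A) by 0.19 ± 0.14 and Anxa2 (annexin A2) by 0.33 ± 0.26. None of these genes passed the test, and their groups overlapped.

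The 12 factors of transcription and splicing had a median of 0.033, with 7 higher and 5 lower. Usf1, whose product binds E-boxes such as the one in the Ceacam1 window shown above, read 6.80, 6.93 and 7.05 in controls and 7.22, 7.38 and 7.21 after BPA. Its groups did not overlap, the difference was 0.34 ± 0.12 (SE, limma's adjusted p = 0.708), and its 3 probe sets ran from -0.074 to 0.47. Sp1, which encodes a factor that binds GC boxes, read 11.28, 11.25 and 11.10 against 10.73, 10.98 and 11.03, a difference of -0.30 ± 0.12 (adjusted p = 0.748 by limma), with other probe sets up to 0.11. The splicing factor gene Hnrnpl differed by 0.47 ± 0.18 with a slight overlap (adjusted p = 0.746 by limma), while Hnrnpa1 differed by 0.017 ± 0.210 and Hnrnpm by 0.048 ± 0.115. The interferon factor gene Irf1 differed by -0.14 ± 0.12 and Pparg, a nuclear receptor gene, by -0.19 ± 0.11. Sp1, Pparg and the hypoxia factor gene Hif1a (-0.17 ± 0.10) were lower without overlap. The 4 probe sets of Hif1a ran from -0.28 to 0.17.

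The 8 measured genes beside the pair on chromosome 7 had differences above 0, as did 6804 of all 11787 genes tested. The genes tested all lay above the filter, unlike these neighbours. Of 12 neighbours, 6 on each side in RefSeq order, 8 had a probe set of their own and 4 lay above the filter. Cxcl17, a chemokine gene next to Ceacam1, differed by 0.11 and Dmac2 by 0.046. Bckdha, a gene of branched-chain amino acid breakdown, differed by 0.26, and Exosc5, of the RNA exosome, by 0.43. Exosc5 read 7.62, 7.42 and 7.97 in controls and 8.02, 8.19 and 8.09 after BPA, without overlap. Lipe, of fat breakdown, and Tmem91, both below the filter, were also higher without overlap, by 0.14 each, and the other 5 overlapped. Over all probe sets 7.56% were higher without overlap, and nothing is read from so few neighbours. None of the 4 above the filter passed limma's test, where the smallest adjusted p was 0.746.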

How the data were processed

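The authors deposited 1 log2 signal per probe set and array for 6 arrays; MAS5 is named without a version or role, per the submitters' processing notes. The sources used here do not state how probes were summarised and scaled. Values ran from 2.95 to 15.32 and were used as deposited, without detection calls, so levels of dim probe sets are uncertain. The number of arrays limits the precision. Groups and replicate numbers came from the sample titles. Genes were named from the platform annotation: 34945 probe sets had 1 gene, 932 several and 9160 none. The filter kept 22518 probe sets with a mean above the median of 6.60; 8 of the 11 members passed it.

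For other genes, the 2 groups were compared two-sided with limma 3.58.1 (R 4.3.3; a linear model per probe set, variances moderated with a trend on signal). Its p-values were adjusted by Benjamini-Hochberg over all probe sets kept, and the script was tested on simulated data. Members are described by values only; their SE comes from the spread within groups, and that of other genes from limma. A gene outside the pair is represented by its probe set with the highest mean. Named were all members, the fixed lists, the 5 genes most like 1425538_x_at by each of 2 measures, the 2 genes next in span and, chosen after their values were seen, chromosomal neighbours. Members and lists were chosen with earlier results of these data known. Promoters came from RefSeq (GRCm38.p6), aligned with Biopython 1.88. Alternatives were other scalings, filters and eBayes settings, an ordinary test, a replicate block, each array left out, and group medians.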

Additional observations from a re-analysis of the deposited data

How the results depend on the processing

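The count of 0 probe sets past limma's adjusted threshold, and of 0 family and partner genes, held in every alternative run, including each array left out (0 to 0). The replicate number as a block also gave 0, with a smallest adjusted p of 0.190 and 3042 probe sets at an unadjusted p under 0.05 against 1458 without it. Same-numbered arrays had deviations that correlated at 0.48, 0.078 and 0.71, so not every number paired its arrays, and the block left each member's difference as it was. The differences of the 4 lower probe sets stayed negative under all 12 alternatives of each. Since every BPA array lay below every control array on these sets, only the other scalings could have changed that sign. With each array left out that of 1425538_x_at ran from -1.64 to -1.35, and as a difference of group medians it was -1.28. Values near 0 changed sign for 1421603_a_at, 1427712_at, 1452532_x_at and 1460681_at, within the spread of their arrays. The number of members lower without overlap was 4 to 6 over the scalings and the arrays left out, highest without control replicate 3. Leaving an array out can only keep or raise this number. The share over all probe sets was not counted in these runs, so nothing is read from it. The median over the Ceacam1 probe sets ran from -0.34 to -0.16 with each array left out. It was -0.029 with only sets named for Ceacam1 alone and -0.64 with only sets above the filter, since these medians rest on different probe sets. The ratio of 1425538_x_at to 1460681_at differed by -1.65 to -1.26 with each array left out. Against 1460682_s_at, chosen after seeing the data as were the comparison with the Ceacam2 set and the fit without both replicate 3 arrays, it differed by -1.14, since that set was itself lower after BPA. The median of the family and partner genes ran from 0.0078 to 0.059 over the arrays left out.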
